A study of Mus musculus with 12 samples.

Results

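The genotype by fasting interaction measures whether the change of a liver transcript between the fed and the fasted state differed between Foxo3 knockout and control mice. It was estimated for every gene from all 12 of the 12 libraries, and 15862 of 55487 genes had enough counts to be tested. The animals were male mice aged 16 to 18 months on an ad libitum diet, with 3 livers in each of 4 groups. Fed controls and fasted controls carried Foxo3 floxed alleles without Cre. Fed and fasted knockouts were Foxo3 flox/flox and positive for Alb-cre, a Cre recombinase driven by the albumin promoter, which is active in hepatocytes. Fasted animals of both genotypes had food withheld overnight. Cre was present only in knockouts, so an effect of Cre itself and of the deletion cannot be told apart. The interaction value of a gene is the log2 fold change fasted against fed in knockouts minus the same log2 fold change in controls. A value above 0 means that the fasted-to-fed ratio was higher in knockouts, whether because controls fell further or because knockouts rose further.

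FoxO3 is a forkhead transcription factor that insulin, acting through Akt, keeps out of the nucleus. When insulin is low, as in fasting, FoxO factors enter the nucleus, and in liver they are known for supporting glucose production and stress resistance together with Foxo1 and Foxo4. Fasting also raises glucocorticoids and glucagon, which act on amino acid breakdown and glucose production, and it sends fatty acids to the liver, which activate the nuclear receptor PPAR alpha and its programme of fat burning and ketone body synthesis.

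Foxo3 itself (chromosome 10) read 45.5, 44.5 and 50.4 CPM (counts scaled to library size) in fed controls and 44.3, 39.9 and 38.1 in fasted controls. Its level was 59.4, 58.8 and 62.2 CPM in fed knockouts and 46.6, 53.6 and 53.4 in fasted knockouts. The gene count was thus not lower in the libraries labelled knockout: the log2 differences were 0.36 fed and 0.33 fasted, and neither passed the test. Which exons are floxed is not stated in the labels, and a count over the whole gene does not check their loss, so knockout below means labelled knockout. The interaction value of Foxo3 was -0.03 (SE 0.13, edgeR), that of Foxo1 was -0.05 (SE 0.19) and that of Foxo4 was 0.04 (SE 0.2).

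Library totals ran from 17520058 to 22414976 counts, and tested genes held at least 99.87% of them. The 10 tested hepatocyte markers summed to between 71900 and 126000 CPM, and none of them was at 0 in any library. Fed control replicate 3 stood apart from its group, with summed T and NK cell markers of 30.3 CPM against 5.37 and 5.42, and with the lowest array quality weight of all libraries (0.353). Fasted control replicate 3 had summed B and plasma cell markers of 1950 CPM against 95.6 and 90.6 in its group. In whole liver, fewer cells of a type and less RNA per cell cannot be told apart. The labels name no batch, so a cohort or day that differed between groups cannot be told apart from them. The p-values rest on the spread between animals within groups, pooled over the 4 groups of 3 livers and moderated across genes.

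At an adjusted p of 0.05 over all tested genes, 1 gene passed the interaction test with edgeR, the ribosomal protein gene Rpl29, which is 0.00630% of those tested. An unadjusted p under 0.05 was reached by 612 genes with values above 0 (3.86%) and by 529 with values below 0 (3.34%). DESeq2, which models the same counts with another test, passed 60 of 19961 genes (0.301%), 37 above and 23 below 0. The fasting responses underlying the interaction were larger in number: 657 genes passed in controls (4.14%) and 393 in knockouts (2.48%) with edgeR. In the fasted state, knockouts and controls differed by 5 genes (0.0315%). Those 5 were Rpl29, the processed pseudogenes Gm6344 and Gm10709, the acid phosphatase gene Acpp and the DNA glycosylase gene Tdg. They come from the fit that gives the interaction and share its libraries.

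Precision was limited by level. The median standard error of the interaction value was 0.75 for the 2089 genes under 1 CPM, 0.45 for 3672 genes from 1 to 5 CPM, 0.23 for 4353 genes from 5 to 20 CPM and 0.17 for the 5748 genes above. Of the 60 genes called by DESeq2, 54 had interaction values of at least 2-fold. That size was reached by 1089 of all 15862 tested genes and by 455 of the 1141 with an unadjusted edgeR p under 0.05. In 42 of the 60 (70%) the fasting change had opposite signs in the 2 genotypes, against 35.6% of all tested genes and 73.8% (842 of 1141) of genes with an unadjusted edgeR p under 0.05, so the share is not particular to the called genes. The genotype difference was larger in the fed state for 30 of the 60 and larger in the fasted state for the other 30. Over all tested genes it was larger fed in 7222 and larger fasted in 8640. At an unadjusted edgeR p under 0.05 these counts were 505 and 636.

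**Figure D1:**
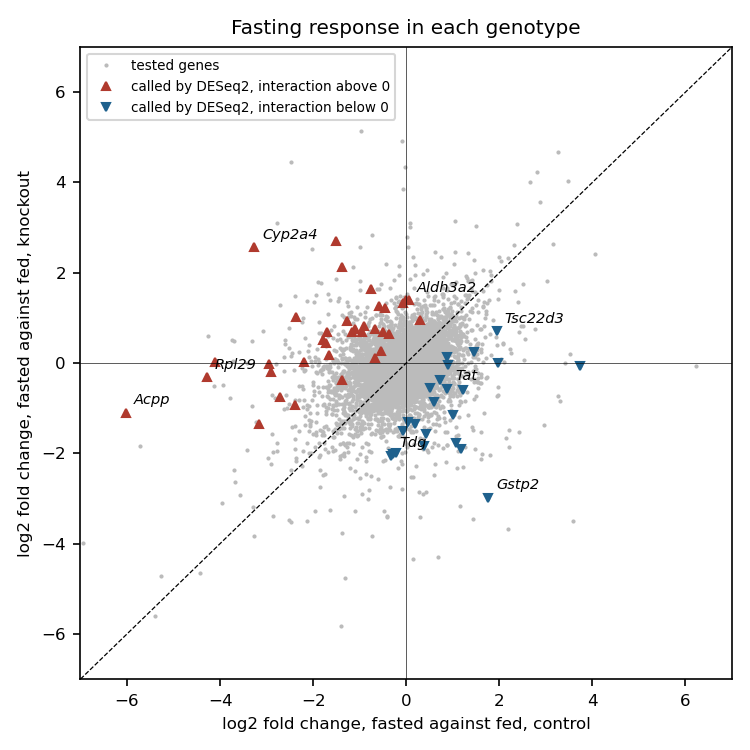
Fitted log2 fold change fasted against fed in controls (x axis) and in knockouts (y axis) for each tested gene; triangles mark genes called by DESeq2 in the interaction, red above and blue below 0, and the dashed line marks equal responses. Rpl29 and Acpp lie far left of the line near a knockout value of 0 to -1.1, Tsc22d3 and Tat lie below it, and 8 genes with more extreme fitted values fall outside the axes.

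Rpl29 encodes a protein of the large ribosomal subunit and lies on chromosome 9 (mm10, 106429454 to 106431568, plus strand). Fed controls had 87.7, 93.6 and 79.0 CPM and fasted controls had 4.1, 6.0 and 3.29 CPM. Knockouts had 98.6, 86.2 and 76.3 CPM fed and 84.9, 76.5 and 48.2 CPM fasted. The highest fasted control, at 6.0 CPM, was far below the lowest of the other 9 libraries, at 48.2 CPM, and the fed groups overlapped. Rpl29 fell 19.6-fold with fasting in controls (log2 -4.29, adjusted p = 1.7e-05, edgeR). In knockouts the fasting change was -0.32 and did not pass (adjusted p = 0.55, edgeR). The interaction value was 3.98 (SE 0.32, adjusted p = 0.00064 with edgeR and 3.2e-30 with DESeq2), a 15.8-fold difference between the responses. Fed knockouts and controls differed by 0.01, and the genotypes differed in the fasted state, where knockouts were higher by 3.98 (adjusted p = 3.6e-05, edgeR).

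The other cytosolic ribosomal protein genes did not share these values. The 80 others tested had interaction values from -0.66 to 0.72 with a median of -0.14, and the smallest adjusted p among them was 0.53 (edgeR). Over the list with Rpl29 (81 genes) the median went from -0.14 to -0.02 without fed control replicate 3. Fasting changes of the 80 in controls ran from -0.38 to 0.7. On the length-scaled TPM level, Rpl29 averaged 194 in fed controls, 188 in fed knockouts and 154 in fasted knockouts, beside medians of 150, 151 and 148 for the other 80. In fasted controls it averaged 9.62 TPM beside a median of 161, and 76 of the 80 were above it, against 28 in fed controls.

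Rpl29 has processed pseudogenes of nearly the same sequence elsewhere in the genome, and reads from one can be counted in another. The first 30 codons of Rpl29 (90 bases of the coding sequence, GENCODE M21 transcript on GRCm38) are shown beside the aligned stretch of 3 pseudogenes. A read that lies wholly within letters identical between copies cannot be assigned by its own sequence. A capital letter marks a base that differs from Rpl29.
Rpl29: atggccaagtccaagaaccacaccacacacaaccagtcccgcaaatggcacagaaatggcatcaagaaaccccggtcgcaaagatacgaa
Gm6344: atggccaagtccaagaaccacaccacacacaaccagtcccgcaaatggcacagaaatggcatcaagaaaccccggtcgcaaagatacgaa
Gm10709: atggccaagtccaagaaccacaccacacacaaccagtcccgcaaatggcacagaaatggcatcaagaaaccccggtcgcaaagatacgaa
Gm5561: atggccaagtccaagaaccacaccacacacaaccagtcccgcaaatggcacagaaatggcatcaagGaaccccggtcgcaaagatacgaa
Over the whole pseudogene, Gm6344 (chromosome 13, 55085777 to 55086259) matched the Rpl29 transcript at 99.4% of aligned bases with an identical run of 299 bases. Gm10709 (chromosome 9, 7751725 to 7752204) matched at 99.2%, with a longest run of 204, and Gm5561 (chromosome 1) at 98.3%, with a longest run of 92.

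The close copies followed the Rpl29 pattern at lower levels. Gm6344 had 6.93, 6.55 and 5.27 CPM in fed controls, 0.0494, 0.735 and 0.338 in fasted controls, 7.47, 5.73 and 5.28 in fed knockouts and 7.65, 7.41 and 3.57 in fasted knockouts. Fasted controls were below all other libraries, with an interaction value of 4.13 (SE 0.64, adjusted p = 0.14 with edgeR and 2.5e-09 with DESeq2). Gm10709 had 3.47, 4.07 and 2.63 CPM in fed controls and 0.593, 0.962 and 0.675 in fasted controls, against 2.05 to 3.55 in the 6 knockout libraries. Its interaction value was 2.22 (SE 0.4, adjusted p = 0.2 with edgeR and 0.0015 with DESeq2). Gm5561 had 7, 12 and 13 counts in fed controls, 0 in each fasted control, and 5 to 14 counts in the knockout libraries. Rpl29-ps2, at 97.7% identity, did not share the pattern: it had 6, 13 and 12 counts in fed controls and 13, 11 and 11 in fasted controls, with an interaction value of -0.35 (SE 0.73). How reads that fit several copies were counted is not given in the sources used here, so the copies are no separate evidence. With the counts of Rpl29 and its aligned pseudogenes summed to 1 feature, an alternative chosen after seeing the data, the interaction value was 3.71 (adjusted p = 0.0014, edgeR).

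**Figure D2:**
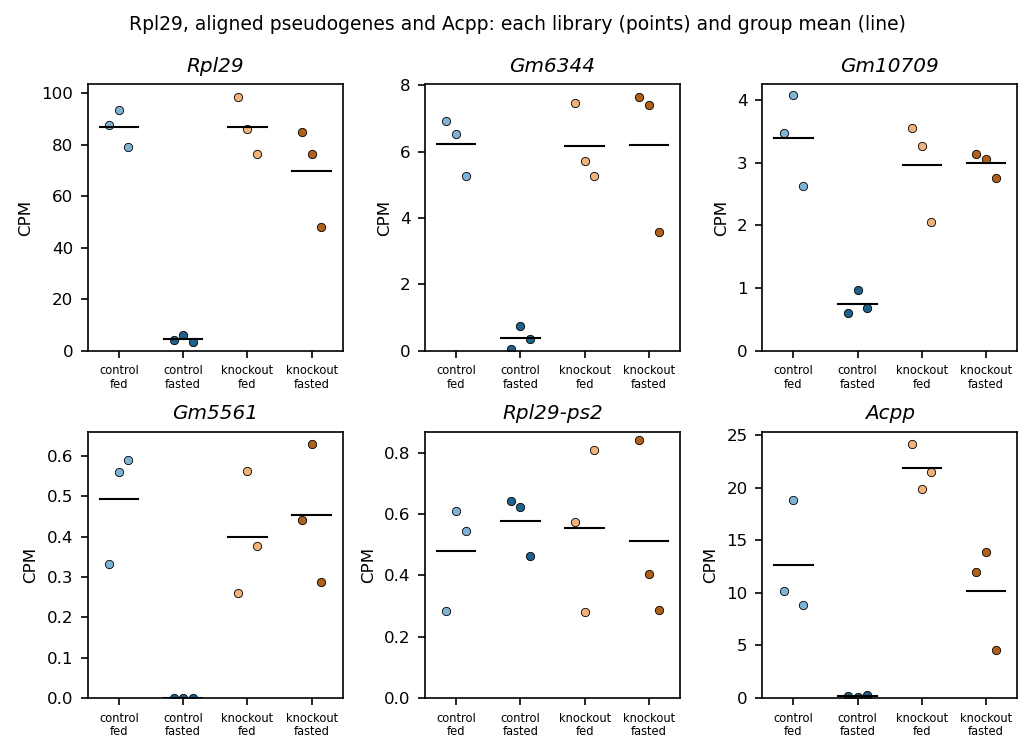
CPM of each library (points) and the group mean (line) for Rpl29, 4 of its processed pseudogenes and Acpp in the 4 groups. Fasted controls are the low group for Rpl29, Gm6344, Gm10709, Gm5561 and Acpp, and are within the range of the other groups for Rpl29-ps2.

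Acpp, which encodes a prostatic-type acid phosphatase, lies 2.14 Mb from Rpl29 on chromosome 9. Fed controls had 10.2, 18.8 and 8.85 CPM and fasted controls 0.148, 0.113 and 0.295. Fed knockouts had 24.1, 19.9 and 21.5 CPM and fasted knockouts 12, 13.9 and 4.55. Fasted controls stood below all other libraries, and fasted knockouts overlapped fed controls. The fasting change was -6.03 in controls (adjusted p = 0.00099, edgeR) and -1.1 in knockouts (adjusted p = 0.19, edgeR). The interaction value of 4.93 (SE 0.73) passed with DESeq2 (adjusted p = 1.6e-09) and missed with edgeR (adjusted p = 0.15). With edgeR it passed without fasted knockout replicate 3 (5.28, adjusted p = 0.0037). It was 1.29 on the log2(TPM + 1) scale, which understates changes of low genes.

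The neighbourhood of Rpl29 held more small p-values than the rest of the genome, a window chosen after these values were seen and described without a test. Within 10 Mb, 204 genes were tested and 32 (15.7%) had an unadjusted interaction p under 0.05, against 7.59% of the other 685 genes of chromosome 9 and 7.08% of all tested genes outside the window. At p under 0.01 the shares were 5.88%, 1.9% and 1.58%. Of the 32 genes, 19 had values above 0 and 13 below, and in 30 the fasting change was larger in controls than in knockouts, as it was in 685 of the 1141 genes with an unadjusted p under 0.05 and in 8632 of the 15862 tested. Acpp, Rpl29, A4gnt and the transcript A930036K24Rik were the 4 calls of DESeq2 in the window. A4gnt, a glycosyltransferase gene, had 1.95, 5.14 and 9.53 CPM in fed controls and 0 counts in all fasted controls, against 0.679, 2.2 and 1.29 CPM in fed and 1.59, 0.225 and 0.0576 CPM in fasted knockouts. Pik3cb, a catalytic subunit of phosphoinositide 3-kinase, had 26.3, 29.6 and 26.8 CPM in fed and 21.8, 19.3 and 16.9 CPM in fasted controls. In knockouts it had 18.6, 21.9 and 22.3 CPM fed and 27.2, 21.9 and 23.7 CPM fasted, an interaction value of 0.73 (SE 0.17, adjusted p = 0.43 with edgeR).

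**Figure D3:**
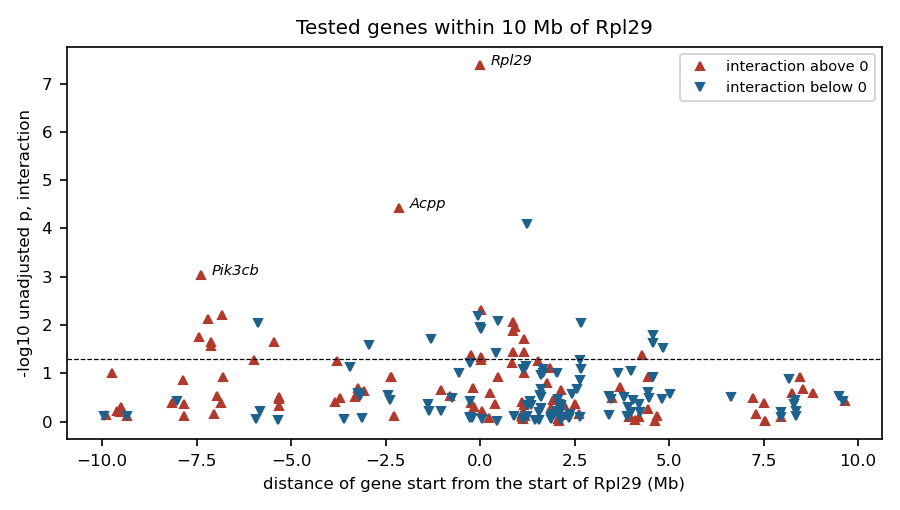
Interaction test of edgeR (unadjusted, as -log10) for the 204 tested genes within 10 Mb of the start of Rpl29, against the distance of their starts in Mb; the dashed line is the threshold of 0.05 and triangles point up for values above 0. Rpl29 and Acpp are the highest points, and 32 genes lie above the line.

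Tdg, the thymine DNA glycosylase that removes mismatched and oxidised bases in DNA demethylation and repair, showed the opposite arrangement, with the low group in fasted knockouts. It had 12, 12.6 and 11.8 CPM in fed controls, 8.16, 7.18 and 13.5 in fasted controls, 12.4, 12 and 12.3 in fed knockouts and 3.8, 2.16 and 2.88 in fasted knockouts. The fasted knockouts lay below the other 9 libraries. Tdg fell with fasting in knockouts (log2 -2.05, adjusted p = 0.0015, edgeR), and the change in controls was -0.33. Its interaction value was -1.72 (SE 0.33, adjusted p = 0.2 with edgeR and 0.0019 with DESeq2).

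Glucocorticoid-induced genes had interaction values below 0 in 13 of 14 tested members, with a median of -0.98 against -0.01 over all tested genes, of which 49.3% were above 0. The list median of the fasting change was 0.83 in controls and 0.26 in knockouts, while fed knockouts were above fed controls by a median of 0.6. None passed with edgeR, 4 had an unadjusted p under 0.05 and 2 passed with DESeq2. Without fed knockout replicate 1 the median was -0.48. These lists were written with earlier results known, so their directions are descriptions. Their counts stand beside the shares over all tested genes. An unadjusted p under 0.05 was reached by 3.86% above and 3.34% below 0 with edgeR, and DESeq2 called 0.301%.

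Tsc22d3 encodes GILZ, a glucocorticoid-induced leucine zipper protein, and had the smallest p below 0. It rose from 35.7, 36.7 and 31.7 CPM to 107, 132 and 159 CPM in fasted controls (log2 1.94, adjusted p = 2.3e-05, edgeR). In knockouts it rose from 67.5, 67.0 and 58.6 to 99.2, 104 and 114 CPM (log2 0.71, adjusted p = 0.016, edgeR). Fed knockouts were above every fed control, and the fasted groups overlapped. The difference between the responses was -1.22 (SE 0.19, adjusted p = 0.14 with edgeR and 3.8e-05 with DESeq2). With edgeR it passed without fasted control replicate 1 (-1.35, adjusted p = 0.024) and, in a further setting, with no filter on low counts (-1.2, adjusted p = 0.0058).

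Tat, tyrosine aminotransferase, which starts tyrosine breakdown, had fasting values of opposite sign in the genotypes. Controls had 826, 889 and 597 CPM fed and 1370, 1280 and 1600 CPM fasted. Knockouts had 2060, 1350 and 1610 CPM fed and 1010, 1180 and 1190 CPM fasted. Fed and fasted libraries did not overlap in either genotype, with the order reversed. Its rise in controls passed (log2 0.88, adjusted p = 0.021, edgeR) and its change of -0.57 in knockouts did not (adjusted p = 0.15, edgeR). The interaction value was -1.45 (SE 0.27, adjusted p = 0.2 with edgeR and 0.00019 with DESeq2). Fkbp5, a co-chaperone of the glucocorticoid receptor, had an interaction value of -1.12 (SE 0.43, adjusted p = 0.63, edgeR), with a fasting rise in controls (1.52, adjusted p = 0.023, edgeR) beside 0.4 in knockouts.

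Irs2, the insulin receptor substrate that carries the insulin signal in liver, had 16.0, 14.4 and 14.8 CPM in fed and 24.8, 20.5 and 18.6 CPM in fasted controls. Knockouts had 28.1, 25.6 and 39.6 CPM fed and 18.4, 22.2 and 23.3 CPM fasted. As for Tat, fasted controls were all above fed controls while fasted knockouts were all below fed knockouts, and the fasted groups overlapped. Its interaction value was -1.05 (SE 0.23, adjusted p = 0.39 with edgeR and 0.042 with DESeq2). Sik1, a salt-inducible kinase that restrains glucagon-driven transcription, was chosen after its values were seen. It had 19.1, 19.1 and 23.1 CPM in fed controls and 54.8, 60.9 and 55.2 in fed knockouts, a genotype difference of 1.48 beside 0.04 fasted. Its interaction value was -1.43 (SE 0.36, adjusted p = 0.53 with edgeR and 0.039 with DESeq2).

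Amino acid breakdown and urea cycle genes were below 0 in 22 of 24 members, with a median of -0.45. With edgeR and with DESeq2 0 members passed, and 7 had an unadjusted p under 0.05. The median fasting change was 0.36 in controls and -0.1 in knockouts. Asl, argininosuccinate lyase of the urea cycle, rose in fasted controls from 372, 532 and 287 to 563, 988 and 1010 CPM (log2 1.1, adjusted p = 0.026, edgeR). In knockouts it had 537, 448 and 426 CPM fed and 497, 398 and 492 fasted, an interaction value of -1.13 (SE 0.35, adjusted p = 0.55, edgeR). Slc25a15, the mitochondrial ornithine carrier, rose by 0.56 in controls (adjusted p = 0.025, edgeR) beside -0.01 in knockouts. Its interaction value of -0.57 (SE 0.18) did not pass (adjusted p = 0.55, edgeR). Sdsl, a serine dehydratase relative, had an interaction value of -1.56 (SE 0.42, adjusted p = 0.55, edgeR). Slc25a22, a mitochondrial glutamate carrier that is not a member of the list, had 148, 149 and 151 CPM in fed and 244, 283 and 296 in fasted controls. Knockouts had 154 to 163 CPM fed and 159 to 203 fasted. It rose in controls (0.88, adjusted p = 0.0017, edgeR) beside 0.13 in knockouts, and its interaction value of -0.75 (SE 0.16) passed with DESeq2 (adjusted p = 0.013). The amino acid list's median was -0.26 without fed control replicate 3. Gluconeogenesis genes, which share Tat, had a median of -0.35 with 9 of 13 below 0, -0.17 without that library, -0.23 without fasted control replicate 3 and -0.55 without fed control replicate 2.

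PPAR alpha targets were above 0 in 18 of 23 members, with a median interaction value of 0.68. Of these, 10 had an unadjusted p under 0.05, 0 passed with edgeR and 1 passed with DESeq2. Without fasted control replicate 1 the median was 0.45. The list's fasting change had a median of 0.97 in controls and 1.4 in knockouts. Fed knockouts were below fed controls by a median of -0.94, and the fasted genotypes differed by -0.21.

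Aldh3a2, a fatty aldehyde dehydrogenase, had 796, 489 and 912 CPM in fed controls and 721, 865 and 691 in fasted controls. Knockouts had 261, 434 and 421 CPM fed and 1070, 848 and 997 CPM fasted. Fed knockouts lay below all other libraries, though the fed genotype difference of -0.98 did not pass (adjusted p = 0.68, edgeR). The fasting rise passed in knockouts (1.39, adjusted p = 0.01, edgeR) with a change of 0.05 in controls. The difference between the responses was 1.33 (SE 0.33, adjusted p = 0.52 with edgeR and 0.028 with DESeq2). Vnn1, a pantetheinase, rose in knockouts from 19.1, 58.2 and 70.6 to 207, 206 and 201 CPM (2.05, adjusted p = 0.026, edgeR), beside 0.45 in controls, with an interaction value of 1.6 (SE 0.54, adjusted p = 0.62, edgeR). Ppara, the receptor itself, rose in knockouts by 0.56 (adjusted p = 0.036, edgeR) beside -0.01 in controls, with an interaction value of 0.57 (SE 0.18).

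Ketone body synthesis genes were above 0 in 5 of 5 members with a median of 0.37, which was 0.22 without fed knockout replicate 1. Bdh1, the mitochondrial enzyme that interconverts acetoacetate and beta-hydroxybutyrate, had 255, 219 and 255 CPM in fed and 297, 319 and 275 in fasted controls. In knockouts it rose from 146, 188 and 196 to 346, 358 and 332 CPM (0.96, adjusted p = 0.0028, edgeR). Fed knockouts were the lowest group and fasted knockouts the highest, without overlap. The interaction value was 0.67 (SE 0.18, adjusted p = 0.53 with edgeR and 0.046 with DESeq2). Fatty acid oxidation genes were above 0 in 18 of 19 members, with a median of 0.16 (0.1 without fed knockout replicate 1), with 0 members at an unadjusted p under 0.05 and 0 calls by DESeq2. Their median fasting change was 0.61 in controls and 0.89 in knockouts. Hadh and Decr1, enzymes of the oxidation spiral, had interaction values of 0.32 (SE 0.15) and 0.35 (SE 0.19).

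Lipid droplet genes were above 0 in 15 of 18 members, with a median of 0.21. An unadjusted p under 0.05 was reached by 6 members, all above 0, against 3.86% of all tested genes in that direction. Cidec, which fuses lipid droplets, had 70.4, 45.6 and 105 CPM in fed and 47.8, 36.5 and 62.3 in fasted controls. Knockouts had 19, 45.6 and 34.1 CPM fed and 106, 78.3 and 52.5 CPM fasted. The control groups overlapped, whereas every fasted knockout was above every fed knockout. The interaction value of 1.86 (SE 0.56) passed with DESeq2 (adjusted p = 0.046) and not with edgeR (adjusted p = 0.58). Plin2, a coat protein of droplets, had an interaction value of 1.01 (SE 0.32) and Fitm1, which promotes droplet formation, 0.93 (SE 0.3), neither called by either tool. The list median was 0.12 without fed control replicate 3.

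**Figure D4:**
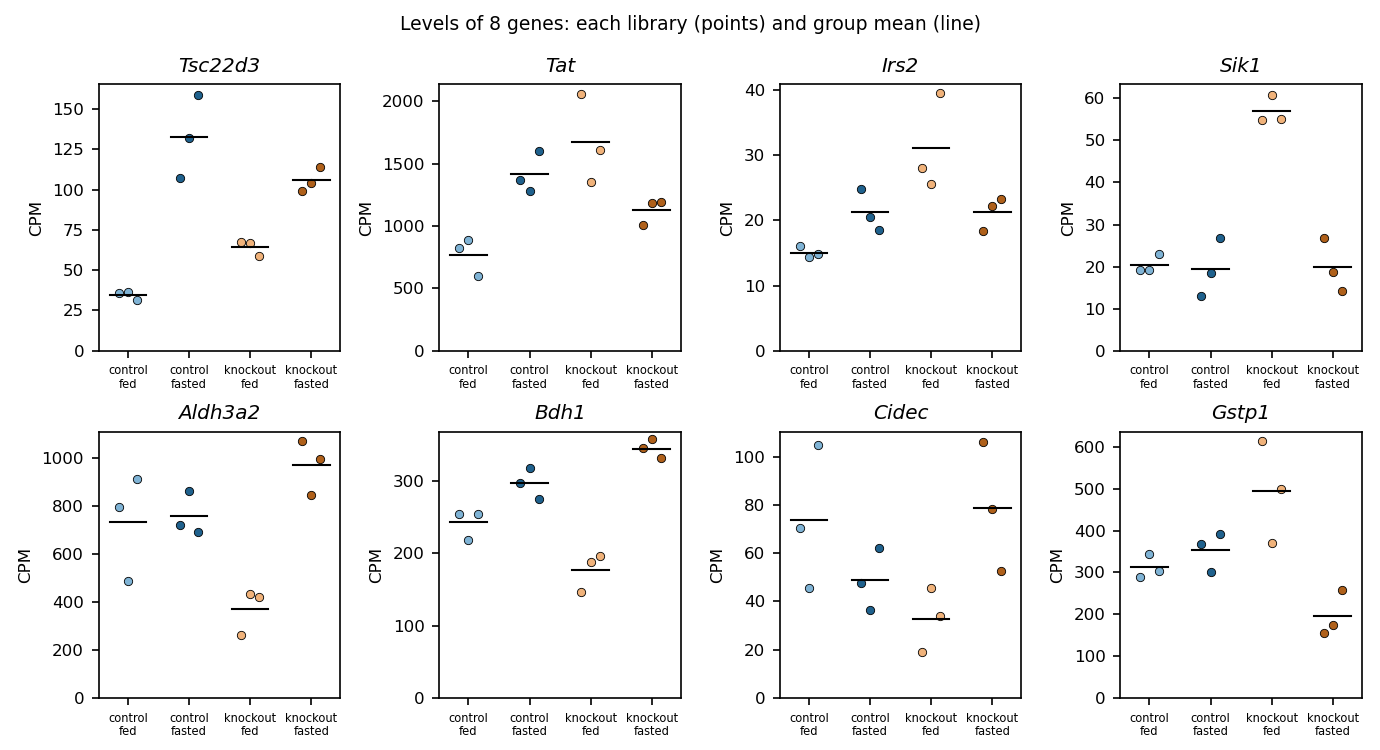
CPM of each library (points) and the group mean (line) for 8 genes in the 4 groups. Tsc22d3, Tat, Irs2, Sik1 and Gstp1 have fed knockouts above fed controls by their means, while Aldh3a2, Bdh1 and Cidec have fed knockouts as the lowest group mean.

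Fatty acid synthesis genes were above 0 in 17 of 18 members with a median of 0.35, and 0.19 without fasted control replicate 3. They were lower after fasting in both genotypes, by medians of -1.75 in controls and -1.5 in knockouts. Scd1, the stearoyl-CoA desaturase, fell in controls from 19200, 25800 and 33400 to 7990, 4680 and 3140 CPM (-2.31, adjusted p = 0.0077, edgeR). Knockouts had 17400, 21100 and 24400 CPM fed and 17600, 7180 and 11000 CPM fasted, so 1 fasted library reached the fed range. The difference between the responses was 1.5 (SE 0.52, adjusted p = 0.62, edgeR). Me1, the malic enzyme that supplies NADPH, fell in controls by 1.73 on the log2 scale (adjusted p = 0.013, edgeR) beside -0.54 in knockouts. Its interaction value of 1.19 (SE 0.43) did not pass (adjusted p = 0.62, edgeR). Elovl5, a fatty acid elongase, had an interaction value of 1.03 (SE 0.32).

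Cholesterol synthesis genes were below 0 in 23 of 24 members with a median of -0.45, and 0 had an unadjusted p under 0.05 with edgeR or a call by DESeq2. The median was -0.25 without fasted control replicate 1 and -0.73 without fasted knockout replicate 2. Their median fasting change was -0.44 in controls and -1.17 in knockouts. Srebf2, the transcription factor that drives the pathway, had an interaction value of -0.5 (SE 0.25), and Msmo1, a sterol oxidase, -0.93 (SE 0.51). Without fasted knockout replicate 2 these were -0.79 and -1.51. Gbe1, the glycogen branching enzyme, had 219, 229 and 291 CPM in fed and 85.5, 116 and 83.7 in fasted controls, beside 147, 209 and 192 in fed and 161, 121 and 138 in fasted knockouts. It fell in controls (-1.37, adjusted p = 0.0017, edgeR), the knockout groups overlapped, and the interaction value of 0.99 (SE 0.25) passed narrowly with DESeq2 (adjusted p = 0.05 when rounded). Pygl, the liver glycogen phosphorylase, fell in controls by 1.13 on the log2 scale (adjusted p = 0.0046, edgeR) beside -0.63 in knockouts, with an interaction value of 0.5 (SE 0.25).

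**Figure D5:**
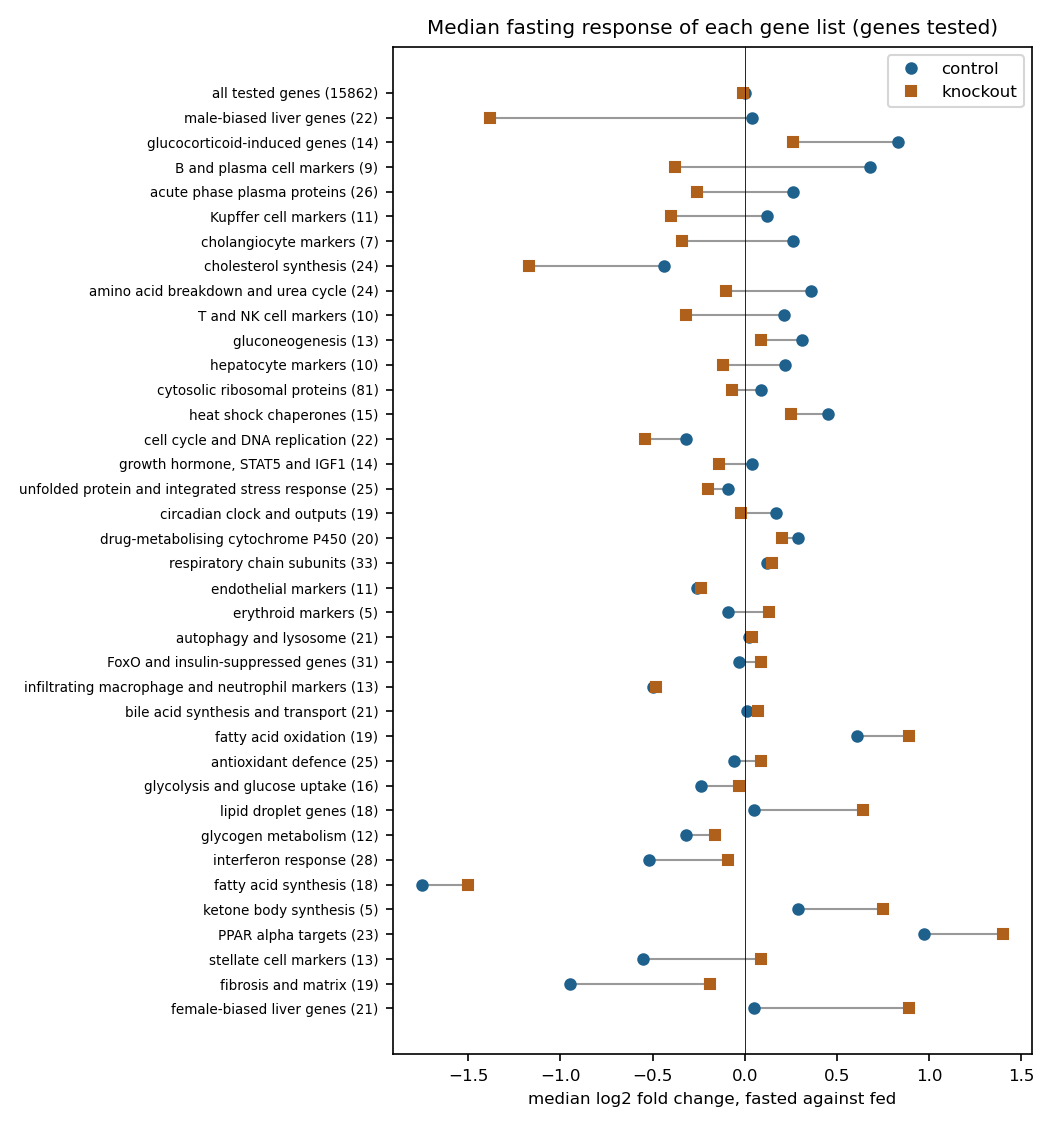
Median log2 fold change fasted against fed of the tested members of each gene list (number in brackets) in controls (blue circles) and knockouts (brown squares), ordered by the median interaction value with all tested genes on top. Male-biased and glucocorticoid-induced genes have the knockout median to the left, PPAR alpha targets and female-biased genes to the right.

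Sex-biased liver genes, which follow the pulse pattern of growth hormone, had medians in opposite directions in these male livers. Male-biased genes were below 0 in 20 of 22 members with a median of -1.34, and 8 had an unadjusted p under 0.05. Their fasting change had a median of 0.04 in controls and -1.38 in knockouts. Female-biased genes were above 0 in 16 of 21 members with a median of 0.94, with 6 above and 1 below 0 at an unadjusted p under 0.05. One female-biased member, Sult3a1, had 0 counts in fed knockouts, and with that group at 3 counts its value was 1.57 and the list median stayed at 0.94. Fed control replicate 3 was low in male-biased RNA, with a sum of 3100 CPM against 11300 and 15200. Without it the medians were -0.94 and 0.67.

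C6, a complement component that is higher in male mouse liver, had 124, 153 and 78.1 CPM in fed and 115, 78.7 and 110 in fasted controls. In knockouts it fell from 311, 236 and 216 to 34.9, 93.9 and 64.1 CPM (-1.99, adjusted p = 0.02, edgeR). Fed knockouts were above all other libraries, and the interaction value of -1.76 (SE 0.49) passed with DESeq2 (adjusted p = 0.039). Mup20, the major urinary protein darcin, had 707, 997 and 721 CPM in fed and 1060, 808 and 3240 in fasted controls. Knockouts had 1950, 1630 and 1550 CPM fed and 292, 857 and 782 fasted, with an interaction value of -2.49 (SE 0.73, adjusted p = 0.55, edgeR), which was -1.62 without fasted control replicate 3. Mup20 was not called by DESeq2 (adjusted p = 0.22). Major urinary protein genes are near-identical copies, so their counts are uncertain. The pseudogenes Mup-ps10 and Mup-ps16, the latter chosen after its values were seen, went the other way. Their interaction values were 3.38 (SE 0.86) and 2.29 (SE 0.64), each with a DESeq2 adjusted p of 0.049. Cyp2a4, a female-biased cytochrome, had 18.5, 6.97 and 65.3 CPM in fed and 1.93, 5.77 and 1.94 in fasted controls, against 4.76, 1.07 and 3.12 in fed and 20.6, 4.22 and 29 in fasted knockouts. Its interaction value of 5.84 (SE 1.5) passed with DESeq2 (adjusted p = 0.013) and not with edgeR (adjusted p = 0.55). Cish, a STAT5-induced inhibitor of cytokine signalling, fell in controls (-2.59, adjusted p = 0.013, edgeR) beside -0.7 in knockouts. Its interaction value of 1.88 (SE 0.63) did not pass (adjusted p = 0.62, edgeR), and was 1.36 without fed control replicate 2. Cish lies 0.87 Mb from Rpl29 and is among the genes of the window described above.

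The pi-class glutathione transferases, which conjugate electrophiles and are higher in male mouse liver, had interaction values below 0. Gstp1 had 290, 343 and 303 CPM in fed and 367, 301 and 391 in fasted controls. In knockouts it fell from 613, 369 and 500 to 154, 174 and 257 CPM (-1.34, adjusted p = 0.0072, edgeR). Fasted knockouts were below all other libraries and fed knockouts above all fed controls. The interaction value was -1.52 (SE 0.3, adjusted p = 0.23 with edgeR and 0.0017 with DESeq2). Gstp2, a near-identical neighbour, had an interaction value of -4.73 (SE 0.8, DESeq2 adjusted p = 2.5e-05) at 0.225 to 6.53 CPM, and the pseudogene Gstp-ps, chosen after its values were seen, had -1.33 (SE 0.33). These 3 can share reads and are no separate observations.

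Acute phase plasma proteins, made by hepatocytes in inflammation, were below 0 in 25 of 26 members with a median of -0.77. No member passed with edgeR or DESeq2. An unadjusted p under 0.05 was reached by 3, all below 0, against 3.34% of all tested genes in that direction. Their summed level was 22300 to 32500 CPM in fed controls, 33100 to 42800 in fasted controls, 39300 to 69500 in fed knockouts and 25100 to 52100 in fasted knockouts. Fed knockout replicate 1 held the highest sum, and without it the median was -0.26, against -1.21 without fasted knockout replicate 2. Hpx, the heme scavenger hemopexin, had 8030, 4780 and 4110 CPM in fed knockouts and 2140, 2480 and 2580 in fed controls, with an interaction value of -1.33 (SE 0.45, adjusted p = 0.61, edgeR).

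Genes known to be driven by FoxO factors or suppressed by insulin had no common direction. Of 31 tested, 16 were above 0 and 15 below, with a median of 0.04. An unadjusted p under 0.05 was reached by 4 above and 2 below 0, against 3.86% and 3.34% of all tested genes. Irs2, described above, was the 1 call by DESeq2. Gadd45a, a growth arrest gene, fell in controls from 10.4, 15.1 and 14.4 to 2.67, 3.22 and 3.42 CPM (-2.1, adjusted p = 0.0012, edgeR). In knockouts it had 11.3, 12.3 and 7.91 CPM fed and 6.9, 5.66 and 3.63 fasted, with an interaction value of 1.15 (SE 0.34, adjusted p = 0.55, edgeR). Cited2, a transcription co-regulator, had an interaction value of 0.45 (SE 0.15).

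FoxO factors bind the forkhead motif GTAAACA, which was searched on both strands in RefSeq promoters of build GRCm38.p6, from 250 bases before to 50 bases after each gene start. Promoters were matched by symbol, and 111 of 11096 whose start lay over 1000 bases outside the tested gene were left out. It was present in 3.55% of 27025 promoters and in 281 of the 10985 tested genes with a matched promoter (2.56%). Among FoxO and insulin-suppressed genes it was found in 3 of 25 (12%: Bcl2l11, Sesn1 and Txnip), and among genes called by DESeq2 in 2 of 35 (5.71%: Cyp2c38 and Gm33543). The 250 bases before the start are shown for a FoxO-list gene of metabolism, a FoxO-list gene of cell death and a gene called by DESeq2, with the forkhead match in capitals (TGTTTAC is the match on the other strand).
Txnip (chr3:96557707-96557956, plus strand): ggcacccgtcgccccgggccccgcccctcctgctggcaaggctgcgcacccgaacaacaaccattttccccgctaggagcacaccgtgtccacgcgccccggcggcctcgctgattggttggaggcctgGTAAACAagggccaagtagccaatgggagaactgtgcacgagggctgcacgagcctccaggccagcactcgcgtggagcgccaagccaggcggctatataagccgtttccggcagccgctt
Bcl2l11 (chr2:128125788-128126037, plus strand): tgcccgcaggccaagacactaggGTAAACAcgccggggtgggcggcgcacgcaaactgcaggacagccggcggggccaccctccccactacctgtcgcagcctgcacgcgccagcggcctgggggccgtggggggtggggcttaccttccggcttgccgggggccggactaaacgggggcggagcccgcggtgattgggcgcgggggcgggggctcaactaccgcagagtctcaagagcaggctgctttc
Cyp2c38 (chr19:39463076-39463325, minus strand): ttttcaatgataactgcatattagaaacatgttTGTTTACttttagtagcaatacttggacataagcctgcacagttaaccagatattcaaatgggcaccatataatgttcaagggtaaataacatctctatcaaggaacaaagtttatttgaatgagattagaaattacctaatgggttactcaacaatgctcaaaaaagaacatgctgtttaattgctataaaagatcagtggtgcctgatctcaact
These genes were chosen for the match and not by the naming rule. Txnip, an inhibitor of glucose uptake, had an interaction value of 0.16 (SE 0.33), and Bcl2l11, the cell death gene Bim, had -0.29 (SE 0.38), which ranged from -0.51 to -0.06 with a library left out. Sesn1, a stress-induced inhibitor of mTORC1, had -0.05 (SE 0.19). Cyp2c38, a cytochrome P450, had 84.0, 64.4 and 103 CPM in fed and 71.3, 90.1 and 79.2 in fasted controls, against 28.4, 50.1 and 60.9 in fed and 122, 94.0 and 131 in fasted knockouts. It rose in knockouts (1.32, adjusted p = 0.024, edgeR), and its interaction value of 1.38 (SE 0.36) passed with DESeq2 (adjusted p = 0.041). A match in a window is a description of its letters.

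Several genes of smallest p lay outside the lists. Fzd4, a Wnt receptor, fell in controls from 82.7, 70.3 and 70.9 to 47.4, 48.0 and 44.7 CPM (-0.68, adjusted p = 0.0045, edgeR), while knockouts had 51.5, 52.3 and 56.3 CPM fed and 63.6, 59.7 and 50 fasted. The control groups did not overlap and the knockout groups did. Its interaction value was 0.79 (SE 0.15, adjusted p = 0.2 with edgeR and 0.0023 with DESeq2). Cers6, a ceramide synthase, had an interaction value of 1.01 (SE 0.23, DESeq2 adjusted p = 0.046).

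Efna1, an ephrin ligand, fell in knockouts from 68.0, 51.2 and 81.3 to 13.6, 18.1 and 17.9 CPM (-2.02, adjusted p = 0.0028, edgeR), beside 34.9, 18.5 and 27.6 CPM fed and 26.9, 21.4 and 18.4 fasted in controls. Fed knockouts were above all other libraries and fasted knockouts below them. The difference between the responses was -1.73 (SE 0.34, adjusted p = 0.3 with edgeR and 0.0015 with DESeq2). Pdzrn3, an E3 ubiquitin ligase, rose in knockouts from 2.87, 3.09 and 3.77 to 7.3, 9.03 and 9.16 CPM (1.39, adjusted p = 0.005, edgeR) beside -0.01 in controls, with an interaction value of 1.39 (SE 0.29, DESeq2 adjusted p = 0.013). Crlf2, the receptor subunit for thymic stromal lymphopoietin, fell in knockouts from 11.1, 9.16 and 7.27 to 4.02, 5.44 and 5.64 CPM (-0.87, adjusted p = 0.037, edgeR), with an interaction value of -1.46 (SE 0.28, DESeq2 adjusted p = 0.0029). Nnmt, which methylates nicotinamide, rose in controls from 54.0, 50 and 26.1 to 160, 122 and 228 CPM (1.97, adjusted p = 0.018, edgeR). In knockouts it had 161, 80.3 and 99.3 CPM fed and 75.5, 127 and 137 fasted, with an interaction value of -1.98 (SE 0.52, DESeq2 adjusted p = 0.02). Lgals1, galectin 1, had 54.4, 34.3 and 92.5 CPM in fed and 25.5, 14.4 and 15.7 in fasted controls, with an interaction value of 2.39 (SE 0.59, DESeq2 adjusted p = 0.0025).

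Genes of lower level completed those named by p or by DESeq2. Igsf23, an immunoglobulin superfamily member, fell in controls from 4.23, 4.16 and 3.86 to 1.48, 1.64 and 0.759 CPM (-1.67, adjusted p = 0.011, edgeR). Knockouts had 4.6, 4.61 and 2.31 CPM fed and 4.29, 4.81 and 3.97 fasted, so fasted controls were the low group, and the interaction value of 1.86 (SE 0.43) passed with DESeq2 (adjusted p = 0.02). Adgrv1, an adhesion receptor, fell in controls from 4.37, 5.85 and 15.5 to 1.58, 1.13 and 0.675 CPM (-2.94, adjusted p = 0.025, edgeR) beside -0.03 in knockouts, with an interaction value of 2.91 (SE 0.84). Mroh6 rose in controls from 0.237, 0.0935 and 0 to 1.83, 0.792 and 1.73 CPM (adjusted p = 0.0089, edgeR), while the 6 knockout libraries had 0.494 to 1.09 CPM. Its interaction value was -3.81 (SE 0.87, DESeq2 adjusted p = 0.023). Bcl3, a co-regulator of NF-kappa B, rose in controls by 0.72 (adjusted p = 0.032, edgeR) beside -0.37 in knockouts, with an interaction value of -1.08 (SE 0.24, DESeq2 adjusted p = 0.039).

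The growth factor receptor gene Fgfr1 and the laminin chain genes Lamc3 and Lama3, named as DESeq2 calls, had values below 0. Laminin chains as a family were not counted, and another of them, Lamb2, had 0.06 (SE 0.37). Lamc3 rose in controls from 2.42, 2.15 and 2.13 to 3.66, 5.88 and 6.16 CPM (1.23, adjusted p = 0.046, edgeR) beside -0.59 in knockouts, with an interaction value of -1.81 (SE 0.44, DESeq2 adjusted p = 0.046). Lama3 fell in knockouts from 9.41, 4.61 and 6.19 to 1.81, 2.83 and 0.921 CPM (-1.84, adjusted p = 0.033, edgeR) beside 0.39 in controls, with -2.23 (SE 0.56, DESeq2 adjusted p = 0.041). Fgfr1 had 42.1, 13.4 and 16.4 CPM in fed knockouts against 5.97 to 15.1 in the other 9 libraries, so 1 library stood far above the rest, and its interaction value was -2.02 (SE 0.57, DESeq2 adjusted p = 0.046), or -1.33 without that library.

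The lists given next had medians from -0.14 to 0.23, a range that also holds those of fatty acid oxidation (0.16) and lipid droplet genes (0.21). Autophagy and lysosome genes (21 tested) had 0.04, circadian clock genes (19) -0.04, drug-metabolising cytochromes P450 (20) -0.03 and genes of the unfolded protein and integrated stress response (25) -0.08. Growth hormone, STAT5 and IGF1 genes (14) had -0.1, bile acid genes (21) 0.14, heat shock chaperones (15) -0.14, antioxidant genes (25) 0.17, glycolysis genes (16) 0.18 and glycogen genes (12) 0.23. Above 0 were 20 of the antioxidant, 12 of the glycolysis and 8 of the glycogen genes. The antioxidant list held Gstp1 below 0 and the glutathione transferase genes Gstm3 (3.45, SE 1.2) and Gstm1 (1.1, SE 0.42) above 0. In fed controls Gstm3 read 62, 50.1 and 476 CPM and Gstm1 1600, 1400 and 2880 CPM, each far highest in replicate 3. The bile acid median ranged from 0.03 to 0.38 when 1 library was left out, without fasted control replicates 1 and 2 in turn, and the glycogen median was 0.14 without fed control replicate 3. In that last setting the clock median was 0.1, the P450 median 0.15 and the stress response median -0.23. Without fasted control replicate 3 the autophagy median was -0.01 and the growth hormone median 0.03. Within these, Hspa1b, an inducible heat shock protein, rose in controls from at most 3.5 to at least 12.5 CPM (log2 2.42, adjusted p = 0.012, edgeR) beside 0.68 in knockouts, with an interaction value of -1.74 (SE 0.59, adjusted p = 0.62, edgeR). Rora, a nuclear receptor of the clock, fell in controls from 101, 88.1 and 88.1 to 58.6, 68.7 and 60.0 CPM (-0.57, adjusted p = 0.01, edgeR) beside -0.14 in knockouts, with 0.43 (SE 0.15). Abcc3, an exporter of bile acid conjugates, rose in knockouts by 0.81 (adjusted p = 0.021, edgeR) beside 0.21 in controls, with 0.6 (SE 0.23).

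Mitochondrially encoded protein genes were above 0 in 11 of 12 members with a median of 0.35, a group chosen after its values were seen. One of them, mt-Co2, a cytochrome oxidase subunit, had 147, 166 and 159 CPM in fed and 67.3, 125 and 104 in fasted controls, beside 109, 111 and 121 in fed and 255, 130 and 193 in fasted knockouts. Its interaction value of 1.43 (SE 0.33) passed with DESeq2 (adjusted p = 0.017) and not with edgeR (adjusted p = 0.46). The nuclear respiratory chain subunits had a median of -0.01 over 33 members, and 0.11 without fed control replicate 3.

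Median values of markers of other liver cells moved in size with single libraries, and some changed sign. Others, such as those of Kupffer and stellate cell markers, kept their sign whichever library was left out. Fibrosis and matrix genes had a median interaction value of 0.79, which was 0.22 without fed control replicate 3, and Col1a1, a collagen chain, read 5.94, 15.4 and 82.4 CPM in fed controls. Interferon response genes had a median of 0.34 with 21 of 28 above 0, and without that library the median was -0.5 with 27 below 0. The median of T and NK cell markers (-0.06 without fed knockout replicate 1) went from -0.4 to -1.85 and that of infiltrating macrophage and neutrophil markers from 0.05 to -0.68 in the same setting. The filter on low counts was redone in each setting, so the tested T and NK members differed. With all libraries 10 were tested, and 12 without fed control replicate 3. Without fed knockout replicate 1, 7 were above and 7 below 0. B and plasma cell markers had a median of -0.98, and -0.35 without fasted control replicate 3, where Igha, the immunoglobulin A heavy chain, read 1120 CPM beside 8.85 and 2.89 in its group. Kupffer cell markers were below 0 in 11 of 11 members with a median of -0.6 (-0.29 without fasted control replicate 1), at summed levels of 359 to 815 CPM in fasted controls and 325 to 481 in fasted knockouts, and 0 had an unadjusted p under 0.05 with edgeR or a call by DESeq2. Cholangiocyte markers had a median of -0.57, and -1.05 without fed control replicate 3, and cell cycle genes went from -0.12 to -0.75 in that setting, and to 0.49 without fasted control replicate 3. Stellate cell markers were above 0 in 11 of 13 members with a median of 0.77, and 0.44 without fasted knockout replicate 2. Endothelial markers had a median of 0.01 (-0.16 to 0.16 with a library left out), erythroid markers 0.04 (-0.15 to 0.23) and hepatocyte markers -0.19, the last -0.02 without fed control replicate 3 and -0.3 without fasted control replicate 3. No tested marker of these cell types was at 0 in any library, apart from 1 member of the fibrosis and matrix list in fed knockout replicate 3, and their part in the other results was not tested.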

How the data were processed

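Liver RNA of 12 mice was sequenced from strand-specific poly(A) libraries, per the labels' protocols. Per the submitters' processing notes, the build was mm10 and the tools were HISAT2 2.1.0, featureCounts 1.6.3, DESeq2 1.24.0, Trimmomatic 0.38 and bcl2fastq 2.19. Not given in the sources used here are the annotation release, the strand setting and the handling of reads with several matches. Raw counts per gene and a table in TPM were deposited. TPM served for levels between genes and as an alternative on a log2 scale, computed from the deposited TPM plus a pseudocount of 1 or 0.1 after a filter of 0.5 TPM.

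Counts were tested with the quasi-likelihood test of edgeR 4.0.16 (R 4.3.3; robust dispersions, TMM factors, filterByExpr), which removed 39625 genes. One fit held 4 group means and 8 residual degrees of freedom, with 2-sided p-values adjusted by Benjamini-Hochberg over all tested genes. CPM are scaled by TMM factors. The model was tested on simulated data. Alternatives were RLE and upper-quartile factors, no filter, 1 CPM in 3 libraries, DESeq2 1.42.0, limma-voom 3.58.1 with and without quality weights, no robust dispersion, log2 TPM, a replicate block and leaving out each library. Sequences were aligned with Biopython 1.88.

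Named genes were the FoxO genes, genes past the threshold, the 10 of smallest p per direction, the 3 of smallest p in each of 37 lists, and the 8 largest DESeq2 calls per direction. A minimum of 1 CPM and no provisional symbol applied to the smallest p and DESeq2 parts. Not all are printed. Members, lists and tests were chosen with earlier results of these data known.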

Additional observations from a re-analysis of the deposited data

Results flagged for a closer look

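Rpl29 is listed because its fasting response differed between the genotypes by a test of the difference itself. The fasting change in knockouts exceeded that in controls by 3.98 on the log2 scale (SE 0.32, adjusted p = 0.00064, edgeR). All 3 fasted controls were below the other 9 libraries.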

How the results depend on the processing

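Rpl29 passed in each of the 13 alternatives other than leaving out a library (3.71 to 4.1), and without each library in turn (3.8 to 4.24, adjusted p from 3.8e-05 to 0.0079, edgeR). The number of genes past the threshold was 5 with no filter on low counts, 60 with DESeq2, 62 with DESeq2 adjusted over the edgeR genes and 3 on log2(TPM + 0.1), against 1 in the report; the cause was not tested. Leaving out 1 library gave 1 to 3: it was 2 without fed control replicate 1, fasted control replicate 1 or fasted control replicate 2, and 3 without fasted knockout replicate 3. With the replicate block the count was 1, and Rpl29 had 3.97. The labels give replicate numbers but no pairing. Same-numbered libraries, as deviations from their group means, correlated at -0.28 to 0.19 over 18 pairs (median -0.07). Differently numbered libraries correlated at -0.2 to 0.3 over 36 pairs (median 0.024). With 3 libraries per group these correlations cannot decide whether samples were paired.

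Values near 0 changed sign. Foxo3 was 0.01 on log2(TPM + 1) and 0.01 on log2(TPM + 0.1), and -0.08 to 0.04 with a library left out. Foxo1 was 0.04 with quality weights and -0.17 to 0.1 with a library left out. In that last setting Foxo4 ranged from -0.08 to 0.17, Rpl29-ps2 from -0.92 to 0.02, Txnip from -0.23 to 0.4 and Sesn1 from -0.2 to 0.07. RLE and upper-quartile factors moved the interaction values of all genes by medians of 0.012 and -0.008. On log2(TPM + 0.1), which also differs in unit, filter and test, the median shift was 0.044. At 3 animals per group, the median standard error of 0.75 under 1 CPM limits what low genes can show.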
